A study of Drosophila melanogaster with 6 samples.

Results

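Neuropeptide precursor genes encode the secretory proteins from which nerve and gland cells cut small signalling peptides. The 35 genes considered were a list of Drosophila neuropeptide and peptide hormone precursors, matched to the arrays through probe sets that carry exactly 1 gene symbol, current or older. Of these, 30 were measured, each by 1 such probe set, among 11982 genes with a probe set in all. AstA, Pburs, Dsk, Hug and Tk had no probe set of that kind and were not analysed here. The measured genes lie on the chromosome arms 3R (10 genes), 2L (8), 2R (7), 3L (4) and X (1). Gene symbols are used throughout, and no coordinates are given.

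The arrays compared 2 stocks of adult female Drosophila melanogaster, 3 arrays of Calment1/4 and 3 of CanS. Calment1/4 is a mutant that had been brought into a background named CS10 by isogenization, and CanS is Canton-S, a common wild-type stock with no treatment. Both were kept at 25 °C on standard medium, and each sample pooled the RNA of 30 to 35 whole flies. Genotype and stock cannot be told apart in this design, and the labels give neither the age nor the mating status of the flies. The series' title names lifespan and protection from oxidative stress as its subject. For the precursor genes, the comparison asks which transcripts had other levels in the mutant stock.

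In peptide-making cells the precursor enters the secretory pathway, is cut at basic residues by prohormone convertases, is often amidated at its end, and is stored in dense-core vesicles until release. The mature peptides act mostly on G protein-coupled receptors. In the adult fly they come from neurons and neurosecretory cells, from enteroendocrine cells of the midgut and from some other glands, and they are known for their part in feeding, water balance, gut and heart contraction, sleep, mating behaviour and the timing of moults. Whole-fly RNA mixes all these sources. A lower value can therefore mean fewer cells of a type or less RNA per cell, and these cannot be told apart here.

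Each probe set has 1 deposited log2 value on each array. Pairs of arrays had correlations between 0.991 and 0.998 across the tested probe sets. Calment1/4 replicate 1 and CanS replicate 3 stood apart from their group mates in the tissue markers. Their eggshell and ovary medians around each gene's mean were -0.23 and -0.62 on the log2 scale, the lowest of their groups, and their midgut enterocyte medians of 0.21 and 0.39 were the highest. The labelled sex was checked against its markers. The means of 7 measured Y chromosome genes ran from 2.80 to 4.55, all at or near the floor, while the yolk gene Yp1 had a mean of 14.01 and the eggshell gene Cp36 one of 13.20. The titles call the arrays biological replicates, but nothing says how the cultures were separated, so p-values measure the spread between these samples.

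Most of the precursors were readily measured in whole females. Taking each array's 10th percentile, 3.43 to 3.49, as its floor, 27 of 30 genes lay over 1 log2 unit above it on all 6 arrays. The same held for 63.9% of all tested probe sets and for 77.3% of genes by their brightest probe set. The remaining 3 genes were CCAP, AstCC and amn. With a floor set at the 90th percentile of the Y chromosome genes, which Pp1-Y2 raises, the count was 25.

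The brightest was Nplp2, a neuropeptide-like precursor, with 13.42, 13.28 and 13.26 in Calment1/4 and 13.43, 13.52 and 13.40 in CanS. It stood at a mean percentile rank of 99.4 in Calment1/4 and 99.4 in CanS among all probe sets of an array. Nplp3, AstC, Ms, Nplp1, CCHa2, Orcokinin and ITP followed, with means over the 6 arrays of 11.61 for Nplp3 and 8.20 for ITP, the last of these. Probe sets differ in how well they bind, so these values place each gene against the floor of the array and do not order the amounts of transcript.

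At the low end, amn (amnesiac, a gene of memory and sleep) had 2.77, 2.66 and 2.75 in Calment1/4 and 2.75, 2.88 and 2.87 in CanS. These values lie below the 10th percentile of every array. The amn mean of 2.78 lies just under the lowest mean of the Y chromosome genes, 2.80. AstCC, a paralogue of AstC, had 4.02, 3.87 and 3.94 in Calment1/4 and 3.91, 3.88 and 4.00 in CanS, with overlapping groups. CCAP, the crustacean cardioactive peptide of ecdysis and heart rate, had 4.25, 4.26 and 4.07 in Calment1/4 and 4.36, 4.35 and 4.28 in CanS. All 3 Calment1/4 arrays were below the CanS arrays for CCAP, by a mean of only -0.14. Differences of such dim genes can be understated, since their values sit close to the floor.

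**Figure D1:**
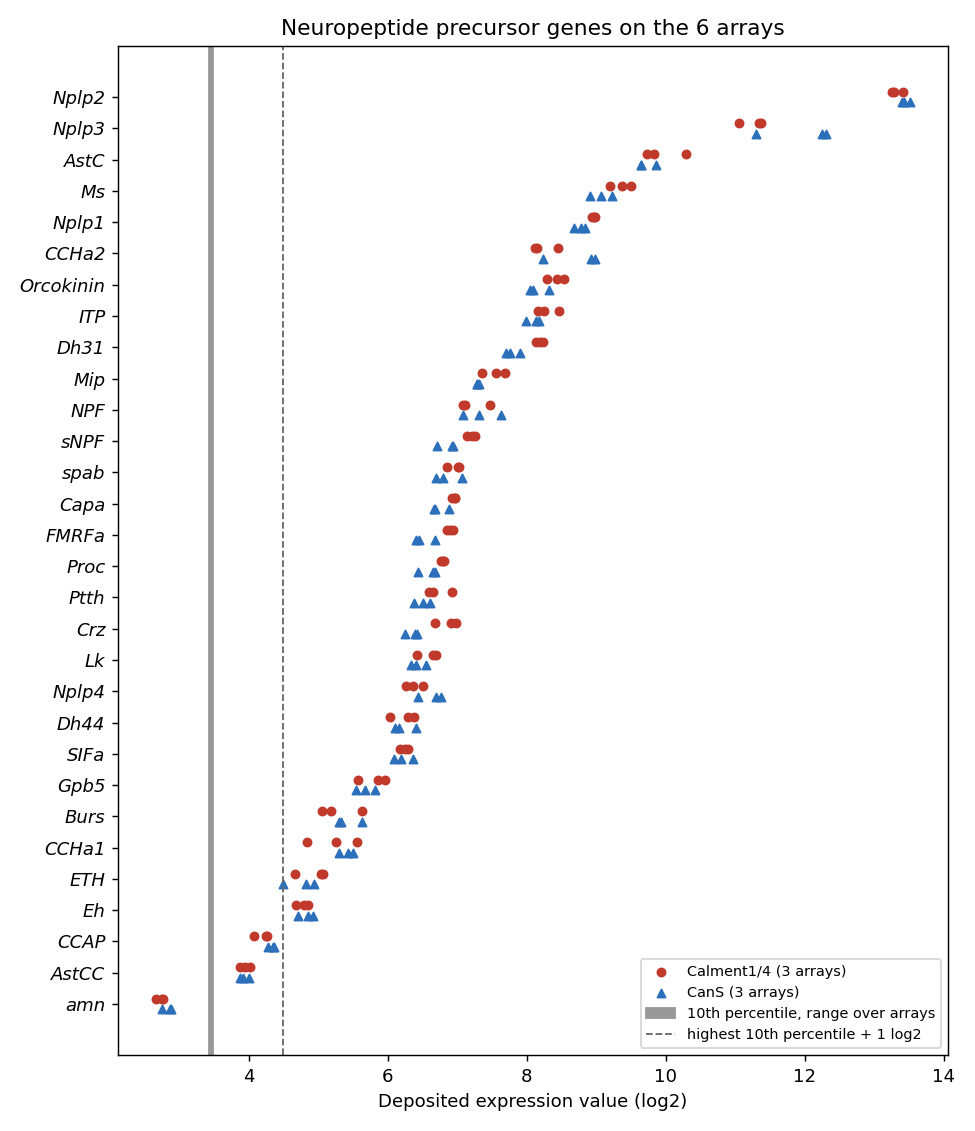
Deposited log2 values (horizontal axis) of the 30 measured precursor genes on each array, ordered by their mean over 6 arrays; red circles are the 3 Calment1/4 arrays and blue triangles the 3 CanS arrays. The grey band is the range of the arrays' 10th percentiles (3.43 to 3.49) and the dashed line lies 1 log2 unit above its upper end. CCAP, AstCC and amn lie left of the dashed line, and Nplp2 stands highest at about 13.4.

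No precursor gene passed an adjusted p of 0.05 between the stocks (0 of 30, limma with Benjamini-Hochberg adjustment over 18769 probe sets), where 0.464% of all probe sets did. The smallest adjusted p was 0.108, for Crz. What the genes showed were small differences, from -0.70 to 0.50 on the log2 scale, with standard errors of 0.08 to 0.25. Their median difference, Calment1/4 minus CanS, was 0.14, against 0.00054 over all tested probe sets. It was 0.08 without Calment1/4 replicate 1 and 0.06 without CanS replicate 2. Of the 30 genes, 20 were above 0, or 66.7%, where 50.2% of all probe sets were, and 51.8% of genes by their brightest probe set.

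An unadjusted p under 0.05 was reached by 12 of the 30 genes (limma), 9 of them higher in Calment1/4 and 3 lower, where 7.67% of all probe sets reached it (3.71% higher, 3.96% lower). All 3 Calment1/4 arrays lay above all 3 CanS arrays for 8 genes, which were Crz, Dh31, FMRFa, sNPF, Nplp1, Capa, Mip and Proc. That is 26.7% of the measured precursors, while 6.36% of all probe sets and 6.84% of genes by their brightest probe set had this order. The reverse order was seen for CCAP alone among the 30, against 6.27% of all probe sets. These are descriptions of a list chosen with earlier results of these data known. With 3 arrays against 3, an exact permutation test of a single gene could not give a two-sided p below 0.1.

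**Figure D2:**
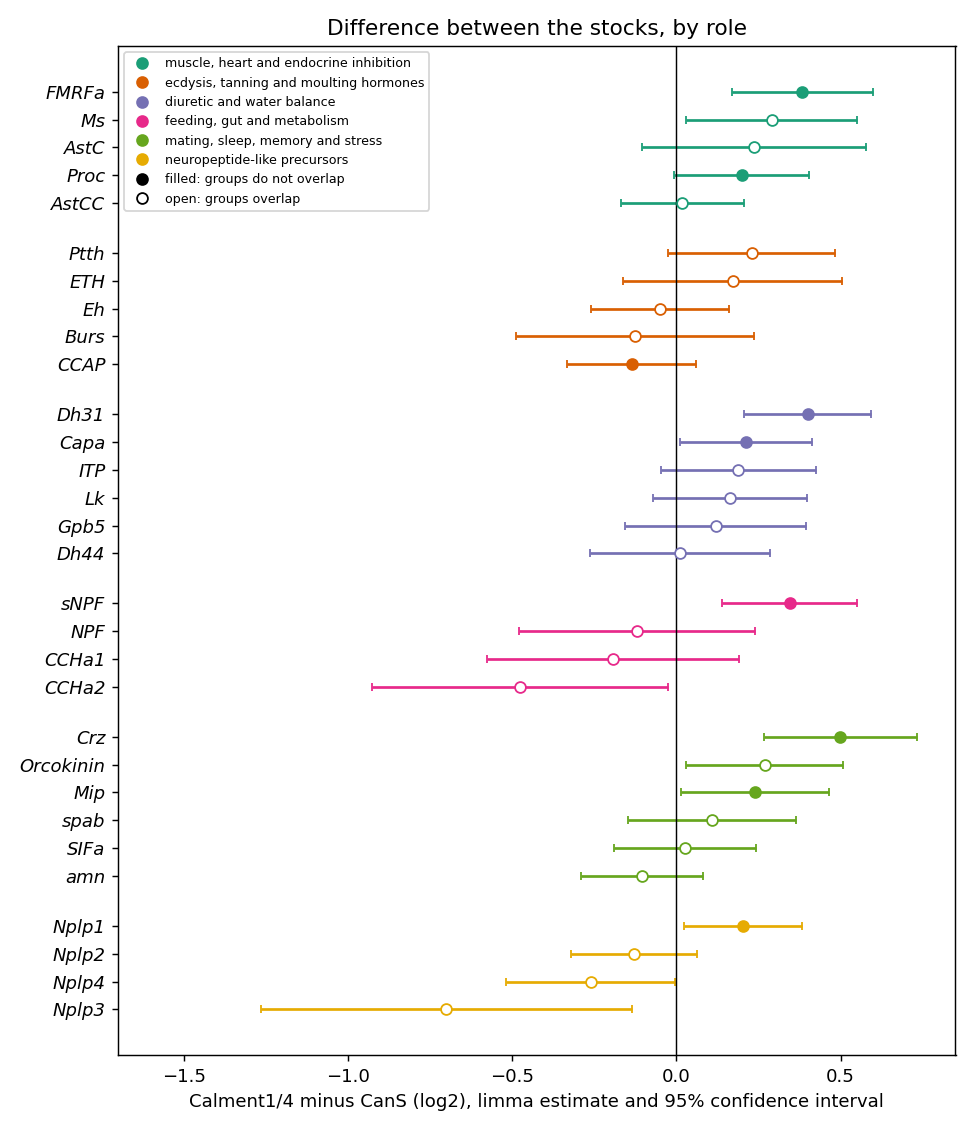
Difference between Calment1/4 and CanS (log2, limma estimate) for each measured precursor gene, with its 95% confidence interval, grouped by role. Filled points mark genes whose 3 Calment1/4 and 3 CanS arrays do not overlap, open points genes whose arrays overlap; differences run from -0.70 for Nplp3 to 0.50 for Crz and none passed the adjusted threshold.

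Among peptides of mating, sleep, memory and stress, Crz had the largest positive difference of all 30 genes. Crz encodes corazonin, a peptide related to the adipokinetic hormones and studied in stress and metabolism. It had 6.98, 6.91 and 6.68 in Calment1/4 and 6.25, 6.42 and 6.39 in CanS. The groups did not overlap, with Calment1/4 replicate 3 the lowest array of its stock and still above every CanS array. It averaged 6.85 ± 0.16 in the mutant Calment1/4 and 6.36 ± 0.09 in the CanS stock (SD, n = 3 each), a 1.41-fold difference (95% confidence interval of the log2 difference 0.27 to 0.73, adjusted p = 0.108 in limma). With array weights, where 1.8% of all probe sets passed, the adjusted p in limma was 0.0417, and without Calment1/4 replicate 1 and CanS replicate 3 the difference was 0.45 (adjusted p = 0.162).

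Mip, which encodes the myoinhibitory peptides, had 7.69, 7.57 and 7.36 in Calment1/4 and 7.28, 7.29 and 7.32 in CanS. The CanS arrays were close together, and the lowest Calment1/4 array, replicate 3, stood just above them. The difference was 0.24 (SE 0.10, adjusted p = 0.602 in limma). Orcokinin, the precursor of the orcokinins of neurons and midgut cells, had 8.53, 8.44 and 8.29 in Calment1/4 and 8.10, 8.04 and 8.32 in CanS. There the highest CanS array, replicate 3, lay above the lowest Calment1/4 array, and the difference of 0.27 had an adjusted p of 0.555 in limma. SIFa, a peptide of a few brain neurons that acts in mating and feeding behaviour, was at 0.03 and spab at 0.11, both with overlapping groups, and amn was at -0.10.

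All 6 measured precursors of diuretic and water balance hormones had differences above 0 (51.8% of all genes did), with a median of 0.18. In 2 of them all Calment1/4 arrays lay above all CanS arrays, an order seen in 6.84% of all genes. Dh31, the calcitonin-like diuretic hormone, which is also made by clock neurons and enteroendocrine cells, had 8.24, 8.19 and 8.13 in Calment1/4 and 7.70, 7.76 and 7.90 in CanS. The Calment1/4 arrays were close together and every CanS array lay below them. The difference was 0.40 (SE 0.08, adjusted p = 0.121 in limma), or 1.32-fold. It was 0.43 without the arrays that stood apart (adjusted p = 0.0868), and its adjusted p was 0.0390 with array weights.

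Capa encodes peptides that act on the Malpighian tubules, the excretory organs. It had 6.97, 6.97 and 6.93 in Calment1/4 and 6.68, 6.67 and 6.89 in CanS, a difference of 0.21 (adjusted p = 0.610 in limma). CanS replicate 3 was close to the Calment1/4 arrays, and the other 2 CanS arrays were lower. ITP, the ion transport peptide, had 8.46, 8.24 and 8.16 in Calment1/4 and 8.14, 7.99 and 8.18 in CanS, and its groups overlapped. The differences of Lk (leucokinin), Gpb5 (a glycoprotein hormone subunit) and Dh44 (a hormone related to corticotropin-releasing factor) were 0.16, 0.12 and 0.01, with intervals that all include 0. For Dh44 the 95% interval of the log2 difference was -0.26 to 0.28.

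The peptides of muscle, heart and endocrine inhibition also had differences above 0 in all 5 measured genes, against 51.8% of all genes, with a median of 0.24. CCAP, which also acts on heart rate, was grouped with the ecdysis hormones instead and was at -0.14. FMRFa, the precursor of FMRFamide-related peptides that modulate muscle contraction, had 6.85, 6.94 and 6.89 in Calment1/4 and 6.68, 6.45 and 6.41 in CanS. Each CanS array was lower than each Calment1/4 array, and the difference was 0.38 (SE 0.09, adjusted p = 0.190 in limma). With array weights it was 0.41 and its adjusted p 0.0464. Proc, which encodes the muscle-exciting peptide proctolin, had 6.76, 6.80 and 6.81 in Calment1/4 and 6.69, 6.44 and 6.65 in CanS. The gap between its groups was narrow, and the difference was 0.20 (adjusted p = 0.668 in limma).

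Ms, the myosuppressin that slows gut and heart muscle, had 9.50, 9.37 and 9.20 in Calment1/4 and 9.07, 8.91 and 9.22 in CanS. CanS replicate 3 lay within the range of the Calment1/4 arrays, and the difference of 0.29 had an adjusted p of 0.566 in limma. AstC, allatostatin C of neurons and enteroendocrine cells, had 10.30, 9.84 and 9.73 in Calment1/4 and 9.64, 9.65 and 9.86 in CanS. Calment1/4 replicate 1 was far above the other arrays, and the remaining 5 overlapped. Its difference was 0.24 with all arrays (adjusted p = 0.848 in limma) and 0.06 without Calment1/4 replicate 1.

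**Figure D3:**
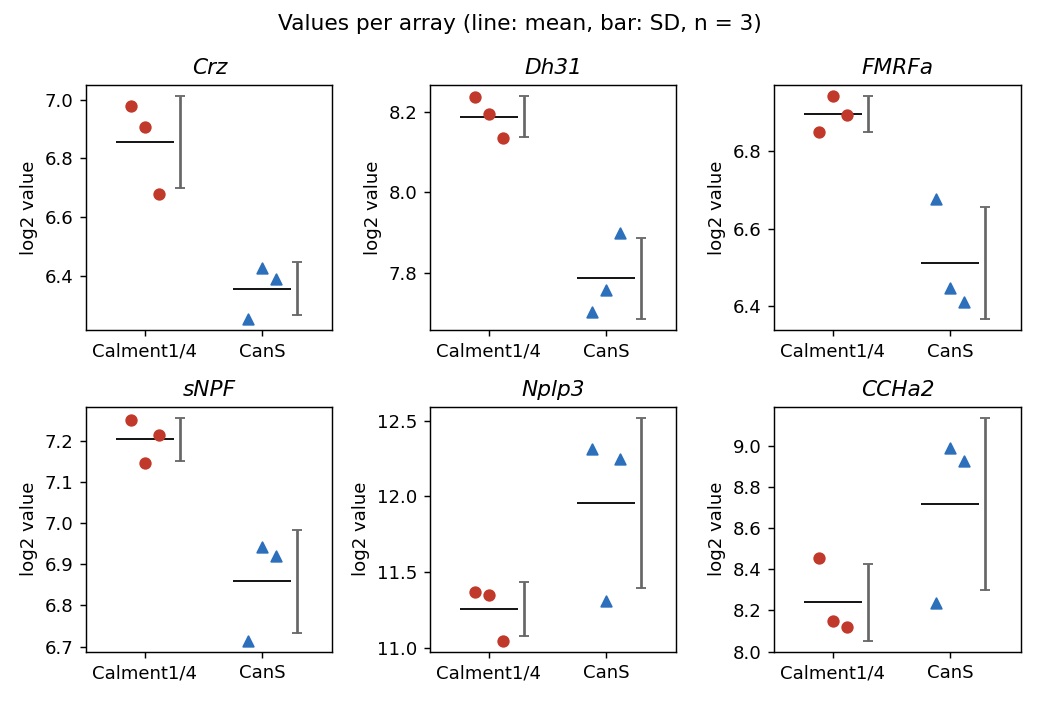
Log2 values on each array for the 4 precursor genes with the smallest p-values (Crz, Dh31, FMRFa and sNPF) and for Nplp3 and CCHa2, the genes with the largest negative differences; red circles are Calment1/4, blue triangles CanS, replicates 1 to 3 from left to right, lines are means and grey bars SD (n = 3). Vertical axes do not start at 0 and differ between panels. CanS replicate 2 of Nplp3 (11.31) and CanS replicate 1 of CCHa2 (8.23) lie among the Calment1/4 values.

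Feeding, gut and metabolic peptides went both ways. sNPF, short neuropeptide F, a peptide that promotes feeding and growth, had 7.25, 7.15 and 7.22 in Calment1/4 and 6.71, 6.94 and 6.92 in CanS. Its groups did not overlap, and the difference was 0.35 (SE 0.09, adjusted p = 0.239 in limma). NPF, the fly relative of neuropeptide Y, had 7.48, 7.08 and 7.11 in Calment1/4 and 7.09, 7.32 and 7.63 in CanS, with a difference of -0.12 and overlapping groups. CCHa1, a peptide of neurons and enteroendocrine cells, was at -0.19, also with overlapping groups.

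CCHa2, a nutrient-responsive peptide of gut and fat body that acts on the insulin-producing neurons, had 8.45, 8.15 and 8.12 in Calment1/4 and 8.23, 8.99 and 8.93 in CanS. CanS replicates 2 and 3 were well above the Calment1/4 arrays and CanS replicate 1 was among them. It averaged 8.24 ± 0.19 in the mutant Calment1/4 and 8.72 ± 0.42 in the CanS stock (SD, n = 3 each), a difference of -0.48 (adjusted p = 0.610 in limma). Leaving out CanS replicate 1, the array among the Calment1/4 values, widens the difference by construction, to -0.72 (adjusted p = 0.108 in limma). Without CanS replicate 2 it was -0.34 (adjusted p = 0.901 in limma). Fbp1 and Lsp2, genes of serum protein storage on the fat body list, were also lowest in CanS replicate 1 among the CanS arrays, while the list's other measured genes Yp1, Yp2 and apolpp were highest in that array among them. Fbp1 had 5.08, 4.94 and 5.04 in Calment1/4 and 4.9998, 5.78 and 5.92 in CanS. Lsp2 had 5.36, 5.18 and 4.92 in Calment1/4 and 5.74, 7.25 and 6.57 in CanS. All 5 measured fat body markers had differences below 0, where 51.8% of all genes were above 0. None passed the threshold, where 0.464% of all probe sets did. The medians of the 5 around each gene's mean were -0.21, -0.18 and -0.08 for Calment1/4 arrays, against 0.08, 0.20 and 0.0097 for CanS arrays. Their part in the CCHa2 difference was not tested.

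The neuropeptide-like precursors, named from peptide surveys and mostly without a known receptor, differed among themselves. Nplp1, which is made by a small set of peptidergic neurons, had 8.98, 8.94 and 8.99 in Calment1/4 and 8.78, 8.68 and 8.83 in CanS. The groups did not overlap, and the difference was 0.20 (adjusted p = 0.557 in limma). Nplp2 was at -0.13 and Nplp4 at -0.26, with overlapping groups and adjusted p of 0.860 and 0.642 in limma.

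Nplp3 had the largest negative difference of the 30 genes, with 11.37, 11.35 and 11.05 in Calment1/4 and 12.31, 11.31 and 12.25 in CanS. CanS replicate 2 lay among the Calment1/4 arrays while the other CanS arrays stood nearly 1 log2 unit higher. It averaged 11.26 ± 0.18 in the mutant Calment1/4 and 11.96 ± 0.56 in the CanS stock (SD, n = 3 each), a difference of -0.70 (SE 0.25, adjusted p = 0.497 in limma). Nplp3 passed in 1 of 14 alternatives, the fit without CanS replicate 2 (-1.02, adjusted p = 0.0263 in limma). That fit drops the array that lay among the Calment1/4 values, so a wider difference was fixed by the choice. In the other alternatives the adjusted p reached up to 0.984. The flight muscle actin gene Act88F had 12.27, 12.23 and 11.76 in Calment1/4 and 12.98, 11.75 and 13.19 in CanS, so that CanS replicate 2 was the low CanS array there too. The medians of the 4 measured muscle markers were 0.01, -0.15 and -0.36 in Calment1/4 and 0.26, -0.33 and 0.47 in CanS around each gene's mean. Their part in the Nplp3 result was not tested.

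Hormones of ecdysis, tanning and moulting, most of whose known work is done before adulthood, showed no common direction. Ptth, the prothoracicotropic hormone that drives ecdysone release in larvae, was the highest of them, with 6.93, 6.65 and 6.60 in Calment1/4 and 6.38, 6.51 and 6.60 in CanS. Replicate 3 of each stock met at 6.60, and the difference of 0.23 did not pass (adjusted p = 0.706 in limma). ETH (ecdysis triggering hormone) was at 0.17, Eh (eclosion hormone) at -0.05, Burs (a bursicon subunit of cuticle tanning) at -0.12 and CCAP at -0.14, all with intervals that include 0.

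Of the precursors also made by enteroendocrine cells, 7 were measured, all above the floor. Dh31, Mip, AstC and Orcokinin had differences above 0, and CCHa1, CCHa2 and NPF below 0. The median was 0.24 for these 7, which is the value of AstC, and 0.12 for the other 23. Without Calment1/4 replicate 1, AstC was at 0.06. Differences above 0 made up 57.1% of these 7 and 69.6% of the other 23, against 51.8% of all genes.

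Markers of neurons and of other cell types were read on the same arrays. None of 8 neuron markers passed (median 0.14, 7 of 8 above 0, all with overlapping groups), beside the precursors' median of 0.14. None of 5 glia markers did (median 0.13). Of all probe sets 0.464% passed, and of all genes 51.8% were above 0. Over all probe sets, the 3 Calment1/4 arrays lay above the CanS arrays in 6.36% and below them in 6.27%. Around each gene's mean, the neuron marker medians were 0.10, 0.11 and 0.04 in Calment1/4 and 0.11, -0.23 and -0.09 in CanS. The precursor medians were 0.12, 0.06 and -0.02 in Calment1/4 and -0.08, -0.13 and 0.03 in CanS, so that CanS replicate 2 was the lowest array on both lists. For the 8 non-overlapping genes the medians were 0.18, 0.13 and 0.12 in Calment1/4 and -0.16, -0.18 and -0.09 in CanS. In this subset every Calment1/4 median was above 0 and every CanS median below it, as the choice of these genes fixes. The medians of 6 enteroendocrine markers were 0.12, 0.07 and 0.02 in Calment1/4 and -0.03, -0.24 and -0.0019 in CanS. These markers share AstC and NPF with the precursors and IA-2 with the peptide-release genes below. Their dimmest gene, tap, had a mean of 3.74, close to the floor. Whether this list reads enteroendocrine cells apart from neurons was not tested. The medians of 5 midgut enterocyte markers were 0.21, -0.32 and -0.62 in Calment1/4 and 0.0019, 0.23 and 0.39 in CanS. Within each stock, the array with the highest midgut median had the lowest eggshell median. For eggshell and ovary the medians were -0.23, 0.34 and 0.34 in Calment1/4 and 0.08, -0.0090 and -0.62 in CanS. The part of these marker differences in the precursor results was not tested.

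**Figure D4:**
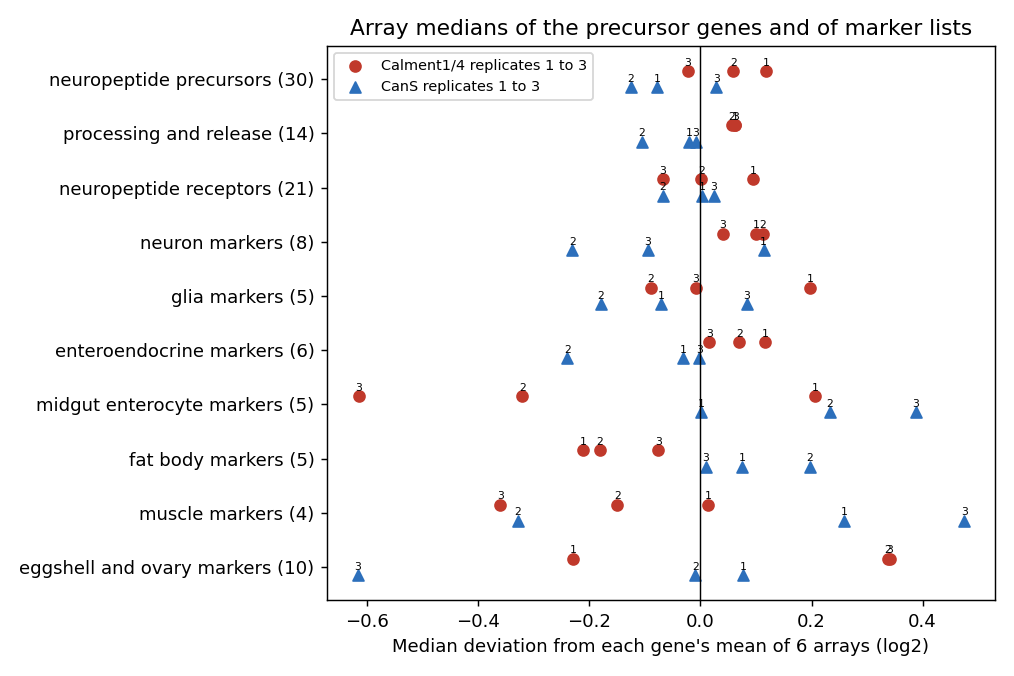
Median deviation from each gene's mean of 6 arrays (log2) for the precursor genes, the processing and receptor lists and tissue marker lists. Numbers of genes are in brackets, and red circles are Calment1/4 and blue triangles CanS, numbered by replicate. The other peptide hormones and the Malpighian tubule markers are not drawn. On the precursor list Calment1/4 replicate 3 (-0.02) lies below CanS replicate 3 (0.03). The glia, midgut, muscle and eggshell lists spread more widely than the precursors within both stocks. The neuron, enteroendocrine and fat body lists do so in CanS only, and the receptor list in Calment1/4 only.

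Of the machinery that makes, releases and degrades peptides, 14 genes were measured, 12 of them above the floor. None passed the threshold in limma, where 0.464% of all probe sets did, and 2 reached an unadjusted p under 0.05, both higher in Calment1/4 (3.71% of all probe sets). The median difference was 0.09, and 11 of the 14 were above 0, against 51.8% of all genes. Cadps, needed for release of dense-core vesicles, had 8.52, 8.47 and 8.62 in Calment1/4 and 8.23, 7.83 and 8.32 in CanS. The groups did not overlap, and the difference was 0.41 (SE 0.13, adjusted p = 0.397 in limma), with 0.44 in its second, dimmer probe set. The prohormone convertase gene amon had 8.69, 8.65 and 8.63 in Calment1/4 and 8.39, 8.20 and 8.50 in CanS, also without overlap, and differed by 0.29 (adjusted p = 0.421 in limma). Phm, which carries out the first step of peptide amidation, was at -0.06, and dimm, a transcription factor of peptidergic cells, was dim at 4.40 in Calment1/4 and 4.37 in CanS.

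Among 21 measured neuropeptide receptors none passed, and 3 reached an unadjusted p under 0.05 in limma, where 0.464% and 7.67% of all probe sets did so. The one nearest to the threshold was SPR, the receptor of the myoinhibitory peptides and of the sex peptide that males transfer at mating. SPR had 8.01, 7.57 and 7.61 in Calment1/4 and 8.42, 8.52 and 8.56 in CanS. Every Calment1/4 array lay below every CanS array, and within Calment1/4 replicate 1 was the highest. It averaged 7.73 ± 0.25 in the mutant Calment1/4 and 8.50 ± 0.08 in the CanS stock (SD, n = 3 each), a difference of -0.77 (SE 0.13, adjusted p = 0.0505 in limma). Over 14 alternatives the adjusted p ran from 0.0027 to 0.351, and 5 of them passed, among them the fit without Calment1/4 replicate 1 (-0.91, adjusted p = 0.0029, with 1.5% of all probe sets passing) and the one without both arrays that stood apart (-0.88, adjusted p = 0.0075, with 1.21% passing). A second SPR probe set, with a mean of 2.89 over the arrays and so below the floor, was at 0.11. Its ligand gene Mip was at 0.24, the opposite sign.

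Lkr, the leucokinin receptor, had 5.76, 5.78 and 5.83 in Calment1/4 and 5.64, 5.57 and 5.47 in CanS, without overlap, and differed by 0.23 (adjusted p = 0.493 in limma), beside 0.16 for its ligand gene Lk. Of the 4 precursor genes with the largest positive differences, 2 had a measured receptor gene, with Dh31-R at 0.10 beside 0.40 for Dh31, and sNPF-R at 0.11 beside 0.35 for sNPF. Whether ligand and receptor differences are unlike was not tested. The other receptor genes set beside their ligands lay between -0.10 (SIFaR) and 0.24 (Dh44-R1). The receptor tor of Ptth, which is also supplied by the mother to the egg, varied more within the stocks, with 7.37, 8.05 and 8.11 in Calment1/4 and 7.95, 8.06 and 7.65 in CanS, low in the same 2 arrays as the eggshell markers.

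**Figure D5:**
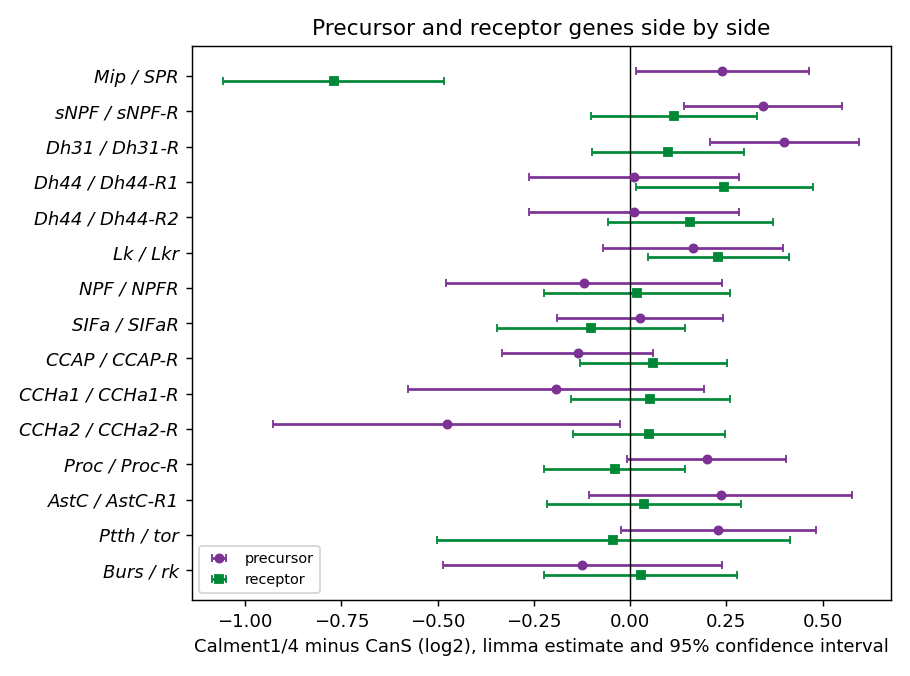
Difference between Calment1/4 and CanS (log2, limma estimate with 95% confidence interval) for chosen pairs of precursor genes (purple circles) and measured receptor genes of their peptides (green squares). SPR at -0.77 stands apart from the other receptors shown, which lie between -0.10 and 0.24. Measured receptors outside these pairs are not shown, among them TkR86C at -0.18 and PK1-R at -0.14.

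Other peptide hormones outside the list showed smaller differences. None of 7 passed or reached an unadjusted p under 0.05 in limma, where 0.464% and 7.67% of all probe sets did. All 7 had overlapping groups. Over all probe sets, the 3 Calment1/4 arrays lay above the CanS arrays in 6.36% and below them in 6.27%. The median of the 7 hormones was 0.01. Ilp7, an insulin-like peptide of abdominal neurons, had 4.55, 4.64 and 4.93 in Calment1/4 and 4.71, 5.003 and 5.17 in CanS, a difference of -0.26 (adjusted p = 0.793). Its CanS arrays reached higher, but CanS replicate 1 lay within the Calment1/4 range. Ilp5, of the insulin-producing brain cells, had 5.19, 5.41 and 5.35 in Calment1/4 and 5.39, 5.51 and 5.48 in CanS, a difference of -0.14. Akh, the adipokinetic hormone, was at -0.13 and Pdf, the peptide of the clock neurons, at 0.12.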

How the data were processed

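Whole-female RNA was hybridised to 6 one-colour Affymetrix arrays. The table holds deposited log2 values, 1 for each probe set and array. Per the submitters' processing notes the tools include affy 1.36.0, RMA and MAS5, with no roles given, so how the values were made is unknown. Array medians lay between 5.84 and 5.91. If the values were scaled across arrays, this can hide a shift common to most transcripts. Dim genes can also be pulled towards a floor.

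Of 18952 probe sets, 183 controls were left out. Among the remaining 18769, 13647 have 1 gene symbol, 402 several and 4720 none. Of the single symbols 13544 matched RefSeq (Release 6 plus ISO1 MT). Genes with several probe sets were read from the brightest. Stocks were compared with limma 3.58.1 (R 4.3.3), with Benjamini-Hochberg adjustment over the 18769 probe sets and a threshold of 0.05. The step was tested on simulated data with independent noise. Its recovery of differences as small as those of the precursors is not given here. Genes and lists were chosen with earlier results of these data known. Values per array are given for the 10 precursor genes of smallest p, the 8 brightest and the 3 dimmest, and for the 2 other genes of smallest p in each pathway list. Those of NPF, Capa, Proc, Ptth, tor, Act88F, Fbp1 and Lsp2 were added after they were seen. No batch or scan time is labelled. Deviations of same-numbered arrays from their group means had correlations of -0.29, 0.20 and -0.43. With 3 arrays per stock this check cannot tell whether equal numbers share a culture or batch. The main fit used no pairing by number. Having 3 arrays per stock limits precision. Alternatives covered normalization, a filter on dim probe sets, trend and robust eBayes, array weights, a replicate block, a threshold of 0.01, averaged probe sets, other floors and left-out arrays.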

Additional observations from a re-analysis of the deposited data

How the results depend on the processing

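The count of precursor genes past the threshold was 0 in the main comparison and in every alternative but array weights, with 3 (Crz, Dh31 and FMRFa), and the fit without CanS replicate 2, with 1 (Nplp3), so that it ran from 0 to 1 over single arrays left out. Crz was then at 0.48, Dh31 at 0.39, FMRFa at 0.41 and Nplp3 at -1.02. Among the 42 other pathway genes SPR alone passed, giving 1 with median centring, with trend and robust on, with array weights, and without Calment1/4 replicate 1 and CanS replicate 3 together, and 0 to 1 with single arrays left out. The calls over all probe sets, 87, were 337 with array weights, 30 with the replicate block, 38 at a threshold of 0.01, 228 without both arrays that stood apart, and 38 to 281 with single arrays left out. The replicate block gave 0 precursor genes and 0 other pathway genes. No label says that equal numbers pair the samples, and the check of deviations cannot decide it. The median difference of the precursors was 0.065 to 0.21 with single arrays left out. AstCC, near 0, changed sign with array weights (-0.016) and on leaving out Calment1/4 replicate 1 (-0.020) or CanS replicate 2 (-0.0086), and was highest, at 0.055, when Calment1/4 replicate 2 was left out. Single differences were followed over the alternatives only for the precursor genes of smallest p, the brightest and the dimmest, and for the other pathway genes of smallest p. No other gene followed in this way changed sign. Whether the remaining genes kept their sign, among them NPF, Dh44 and SIFa, was not tested. The count above the floor lay between 23 and 29 under other floors and margins, and the filter on dim probe sets removed amn, AstCC and CCAP.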

Other observations

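A further probe set carries the symbols of Nplp4 and CG4238 together and was not used for Nplp4. Its values were 4.19, 4.19 and 4.07 in Calment1/4 and 4.44, 4.33 and 3.93 in CanS, with overlapping groups and a difference of -0.08 (adjusted p = 0.991 in limma), beside -0.26 for the probe set of Nplp4 alone.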
